A study of Rattus norvegicus with 6 samples.

Results

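Genes of the lysosome and of autophagy were followed in cultured ventricular heart muscle cells of newborn rats (neonatal rat ventricular myocytes, NRVM). They were chosen by symbol, with earlier results of these data known. Of 39 symbols, 38 had a row among the 13843 rows of the table. Lamp2 had 2, so 39 rows are described: 16 of lysosomal proteins, 20 of the autophagy machinery, and 3 of Tfeb, Tfe3 and Rilp. None was listed at 0 in any library, and all 39 were tested. Ctsl had no row under that symbol; Ctsl1, an older symbol of the same gene in RefSeq, did, and it was not counted as a member.

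RNA sequencing covered 6 libraries in 3 groups of 2, each treated for 3 days. PE+TSA+shJIP1 stands for phenylephrine, TSA and a short hairpin RNA against JIP1. PE+TSA stands for phenylephrine, TSA and a control hairpin, and PE for phenylephrine and the control hairpin. All groups thus received phenylephrine, an alpha-1 adrenergic agonist under which cultured cardiomyocytes enlarge, and a hairpin. TSA commonly abbreviates the histone deacetylase inhibitor trichostatin A; the labels give only the letters. JIP1, the product of Mapk8ip1, is a JNK pathway scaffold and a cargo adaptor of kinesin. One label calls the hairpin group a knockout, but its treatment is a hairpin. The labels do not tie the libraries of a group to different cultures; the spread behind the p-values may then be technical.

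Autophagy wraps cytoplasm, protein aggregates or worn mitochondria in a double membrane, the autophagosome, which fuses with a lysosome where acid hydrolases digest the contents. A starting kinase complex, a lipid kinase and a conjugation system that fixes Atg8-type proteins (the LC3 and GABARAP families) to the membrane act in turn, followed by transport along microtubules and fusion. Heart muscle cells rarely divide and clear old mitochondria by this route, and inherited loss of Lamp2 or Gaa causes heart muscle disease in humans. In mouse neurons JIP1 binds LC3 and steers autophagosomes along microtubules. Transcript levels do not give the rate at which autophagosomes form or are digested.

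Levels are in FPKM, a read density per transcript length and library size. Part of the low values fall on whole-read steps, which gave the depth of each library relative to PE replicate 1. It was 0.72 to 1.34 in the libraries with TSA but 0.0481 in PE replicate 2. That library was 20.8 times shallower, and its low values are the least precise. Its depth estimate rests on few rows, with 14 of the 20 used at the most common step. Mapk8ip1, the hairpin target, had 1.8 and 3.65 FPKM (PE+TSA+shJIP1), 14.6 and 17.9 (PE+TSA) and 3.77 and 4.39 (PE); its change with the hairpin was -2.25 ± 0.34 (SE, log2 scale; limma adjusted p = 0.077). These are bulk cultures, in which fewer cells of a type and less RNA per cell cannot be told apart. Markers of cardiomyocytes (10 of 10 with a row) summed to 11059 and 5949 FPKM with PE+TSA+shJIP1, 11759 and 5869.7 FPKM with PE+TSA and 25919.8 and 21038 FPKM with PE. Macrophage markers (12 of 15), genes of a cell type rich in lysosomes, summed to 16.6 and 14.6 FPKM (PE+TSA+shJIP1), 15.2 and 7.14 (PE+TSA) and 30.2 and 30.0 (PE); the highest was Fcer1g, which spanned 2.44 to 12.6 FPKM, while Cd14 spanned 0.719 to 6.72, Emr1 0.358 to 2.62, Ptprc 0 to 0.522 and C1qa 0 to 0.105 FPKM. A 0 is no measure of absence here: the collagen gene Col1a2 was listed at 0 in 5 libraries in which Col1a1, its partner chain, was abundant. Fibroblast markers (10 of 10) summed to 578 and 698 FPKM with PE+TSA+shJIP1, 545 and 759 FPKM with PE+TSA and 1058 and 1714 FPKM with PE, and smooth muscle and pericyte markers (9 of 9) to 522 and 503 FPKM (PE+TSA+shJIP1), 413 and 269 (PE+TSA) and 1672 and 1362 (PE). Endothelial markers (9 of 9) summed to between 12.8 and 41.2 FPKM. The cardiomyocyte, fibroblast, smooth muscle and macrophage sums were thus lower in all 4 libraries with TSA than in both PE libraries, and the part of this in the results below was not tested. Col1a1 (284 to 1050.3 FPKM) made up most of the fibroblast sum, and the only fibroblast marker called with TSA, Thy1, rose (2.84 ± 0.36, limma adjusted p = 0.0373). Acta2 (988 and 886 FPKM in PE) made up most of the smooth muscle sum in PE. Notch3, of the same list, went the other way, with 2.59 to 4.16 FPKM in the libraries with TSA and 0.927 and 0.984 in PE. Of the 7 macrophage markers tested, 6 changed downward and 1 upward with TSA, and 4 and 3 with both agents. Csf1r, for example, had 1.63 and 1.1 FPKM (PE+TSA+shJIP1), 1.17 and 1.42 (PE+TSA) and 1.56 and 0.501 (PE), with overlapping groups. The FPKM of all rows summed to between 401714 and 1074800 per library.

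Changes are differences of log2(FPKM + 1), a scale that understates the change of low genes, tested with limma over the 10359 rows whose mean reached 1 FPKM. A row is called at a Benjamini-Hochberg adjusted p under 0.05 over those rows. Over all of them the median change was 0.10 for PE+TSA over PE, -0.00 for PE+TSA+shJIP1 over PE+TSA and 0.10 for PE+TSA+shJIP1 over PE. With quantile normalization these medians were -0.02, 0.03 and 0.01, so members are read beside the centre of the table. Shares of all rows given beside those of members were not matched to them for level or for spread between libraries of a group. The 3 comparisons share libraries, so opposite or equal signs in them are not independent.

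With TSA, Rilp, an adaptor that links lysosomes to the dynein motor, fell, and no other of the 39 rows was called; over all rows 0.811% were called, 0.627% upward and 0.183% downward. At an unadjusted p under 0.05, 9 members were higher and 1 lower (25.6% of members, beside 18.7% of all rows, 11.6% upward and 7.1% downward). Both PE+TSA libraries lay above both PE libraries for 21 members (53.8%) and below both for 5 (12.8%), where 29.5% and 21.1% of all rows did so. The median change was 0.21 over the lysosomal and 0.40 over the autophagy rows; without PE replicate 2 the second was 0.27, and without PE+TSA replicate 1 the first was 0.33. Rilp was not called whichever library was left out. Without PE replicate 1, PE was the shallow PE replicate 2 alone, so the members passing there, Ctsz and Gla, are not read as more secure.

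With the JIP1 hairpin on top of TSA, no member was called by limma, and 0.29% of all rows were. At an unadjusted p under 0.05, 3 members were higher (Atg12, Wipi2 and Atg16l1) and 2 lower (Ctsz and a Lamp2 listing), 12.8% of members beside 14.9% of all rows (5.93% upward and 8.94% downward). Both hairpin libraries lay above both PE+TSA libraries for 6 members (15.4%) and below both for 13 (33.3%), beside 24.9% and 25.1% of all rows. The medians were -0.03 (lysosomal) and -0.27 (autophagy); the second was -0.10 without PE+TSA replicate 2, -0.23 without PE+TSA replicate 1, -0.11 without PE+TSA+shJIP1 replicate 1 and -0.16 without PE+TSA+shJIP1 replicate 2.

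With TSA and the hairpin together against PE, Atg12 and Wipi2, which act in building the autophagosome, rose and Rilp fell: 3 of 39 rows, where 8.27% of all rows were called (4.11% upward and 4.16% downward), a share like that of the members. At an unadjusted p under 0.05, 7 members were higher and 3 lower (25.6% of members), beside 17.1% of all rows upward and 13.6% downward (30.7% in all). Both PE+TSA+shJIP1 libraries lay above both PE libraries for 19 members (48.7%) and below both for 6 (15.4%), beside 33.9% and 26.7% of all rows. The medians were 0.32 (lysosomal) and 0.25 (autophagy), and the second was 0.03 without PE replicate 2. Without that library or any 1 of the 4 with TSA no call held. Without PE replicate 1, PE was the shallow PE replicate 2 alone. Members passing there (Rilp, Wipi2, Atg3, Gabarapl1, Gabarapl2 and Gla) are therefore not read as more secure.

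**Figure D1:**
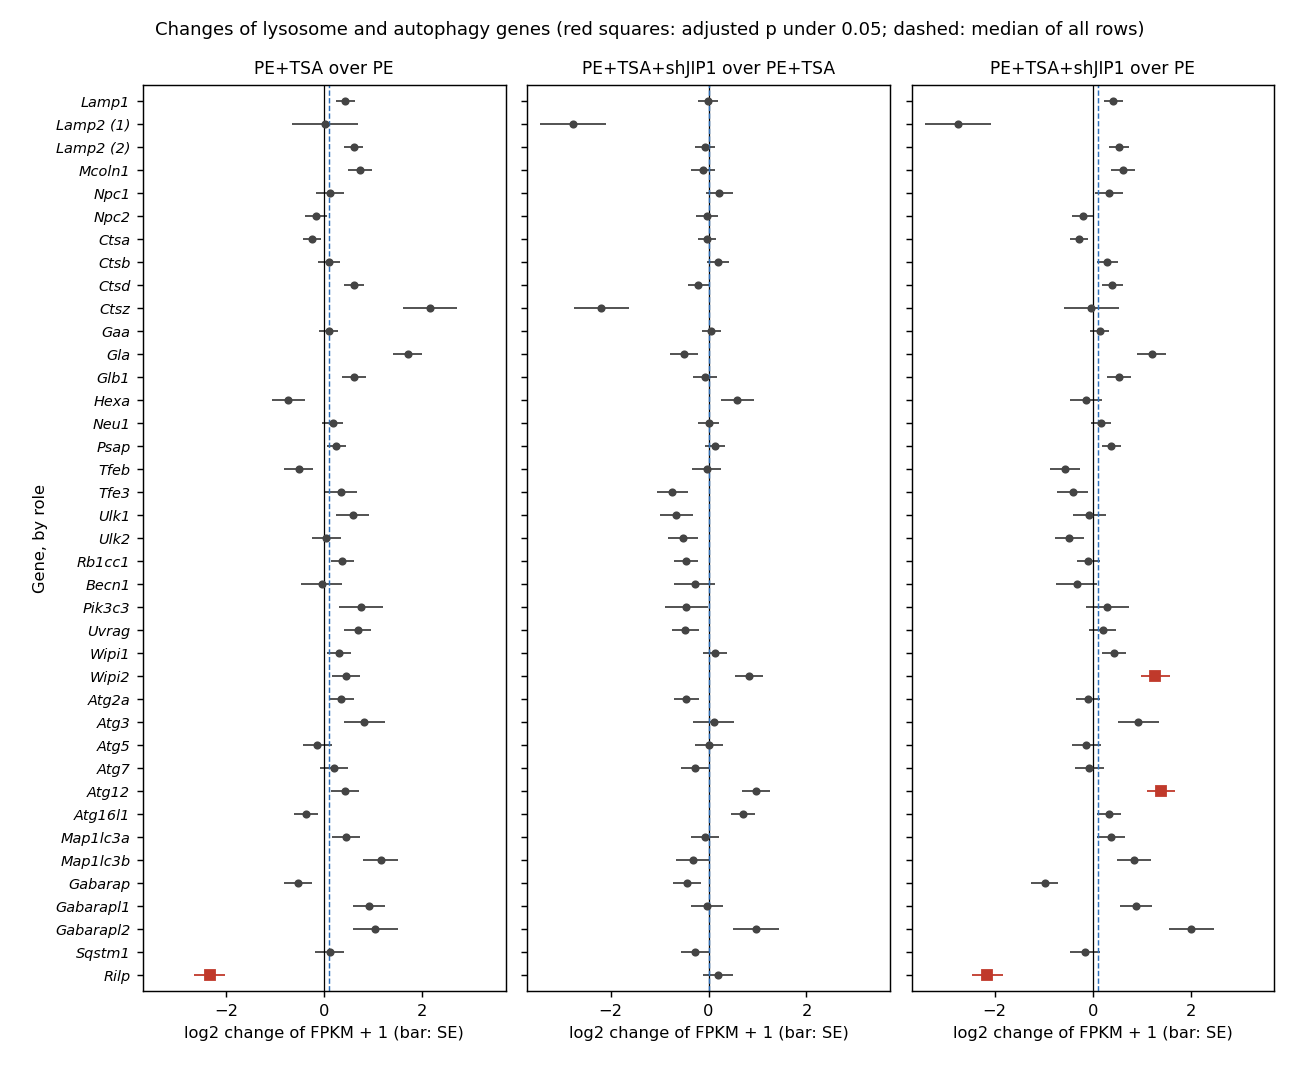
Change of each member on the log2(FPKM + 1) scale (bars are SE) in the 3 comparisons; red squares mark adjusted p under 0.05 and the dashed line is the median of all rows tested. Rilp is red for PE+TSA over PE, no member is red for PE+TSA+shJIP1 over PE+TSA, and Rilp, Atg12 and Wipi2 are red for PE+TSA+shJIP1 over PE; Lamp2 (1) and (2) are its 2 listings.

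Rilp encodes the Rab7-interacting lysosomal protein, which ties Rab7 on late endosomes and lysosomes to dynein and so draws them towards the cell centre. Rilp had 1.85 and 2.47 FPKM with PE+TSA+shJIP1, 1.55 and 1.96 FPKM with PE+TSA and 14.4 and 11.7 FPKM with PE. All 4 libraries with TSA were far below both PE libraries, and the groups with and without the JIP1 hairpin overlapped. Rilp fell by 2.34 ± 0.31 (SE) with TSA (limma adjusted p = 0.0386). This is 5.08-fold lower on the FPKM + 1 scale, which understates the gap between the mean levels of 1.75 and 13 FPKM. With both agents against PE it fell by 2.15 ± 0.31 (adjusted p = 0.0194). With the hairpin against PE+TSA its change was 0.20 ± 0.31, with a 95% interval of -0.56 to 0.95 (adjusted p = 0.824). The TSA change ran from -2.82 to -2.20 over 12 alternative settings, but its call held in 1 of them and was lost without any single library (adjusted p 0.0584 to 0.293). The call with both agents held in 6 of 12, with changes of -2.54 to -2.01, and was lost without PE replicate 2 or any 1 of the 4 libraries with TSA (adjusted p 0.0556 to 0.128).

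Of 25 rows of other genes of lysosome positioning and fusion, 0 were called with TSA by limma (0.811% of all rows were). At an unadjusted p under 0.05, 2 were higher and 2 lower (16%, beside 18.7% of all rows). With the hairpin 0 were called, and 1 was higher and 2 lower at that limit (12%, beside 14.9%). With both agents 1 was called, Plekhm2, where 8.27% of all rows were. Its protein joins the small GTPase Arl8 to kinesin and so carries lysosomes outwards. Plekhm2 had 8.85 and 8.7 FPKM (PE+TSA+shJIP1), 14 and 14 (PE+TSA) and 25.8 and 26.1 (PE), with no overlap between groups. It fell by 1.46 ± 0.21 with both agents (adjusted p = 0.019), a call that held in 6 of 12 alternatives.

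Among the membrane and cholesterol-export proteins of the lysosome no row was called. Lamp1, a main glycoprotein of the lysosomal membrane, had 175 and 185 FPKM with PE+TSA+shJIP1, 162 and 203 FPKM with PE+TSA and 129.9 and 139 FPKM with PE. All 4 libraries with TSA lay above both PE libraries, but the change of 0.43 ± 0.20 with TSA did not pass (adjusted p = 0.316). Mcoln1, a calcium channel of the lysosome, had 8.2 and 8.31 FPKM (PE+TSA+shJIP1), 8.23 and 9.85 (PE+TSA) and 5 and 5.03 (PE), again with PE lowest (TSA change 0.73 ± 0.25, adjusted p = 0.203). Npc1 and Npc2, which pass cholesterol out of the lysosome, spanned 5.39 to 8.13 and 60.4 to 88.5 FPKM, and for both the PE+TSA and PE groups overlapped.

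Lamp2, the other main membrane glycoprotein, needed for fusion with autophagosomes, had 2 rows of unlike level and pattern. Listing 2 of 2 had 262 and 262 FPKM with PE+TSA+shJIP1, 265 and 286 FPKM with PE+TSA and 164 and 200.2 FPKM with PE, and all 4 libraries with TSA lay above both PE libraries (TSA change 0.60 ± 0.20, adjusted p = 0.194). Listing 1 of 2 had 0.000602 and 3.33 FPKM (PE+TSA+shJIP1), 15.2 and 11.5 (PE+TSA) and 15.8 and 10.7 (PE). Both hairpin libraries were lowest, with a change of -2.77 ± 0.67 against PE+TSA that did not pass (adjusted p = 0.154), and they differed from each other by 2.12 on the log2 scale. Without PE+TSA+shJIP1 replicate 1 that change was -1.71, and without replicate 2 it was -3.83. The table does not say which transcripts a row stands for, and how reads were split between the rows is uncertain.

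**Figure D2:**
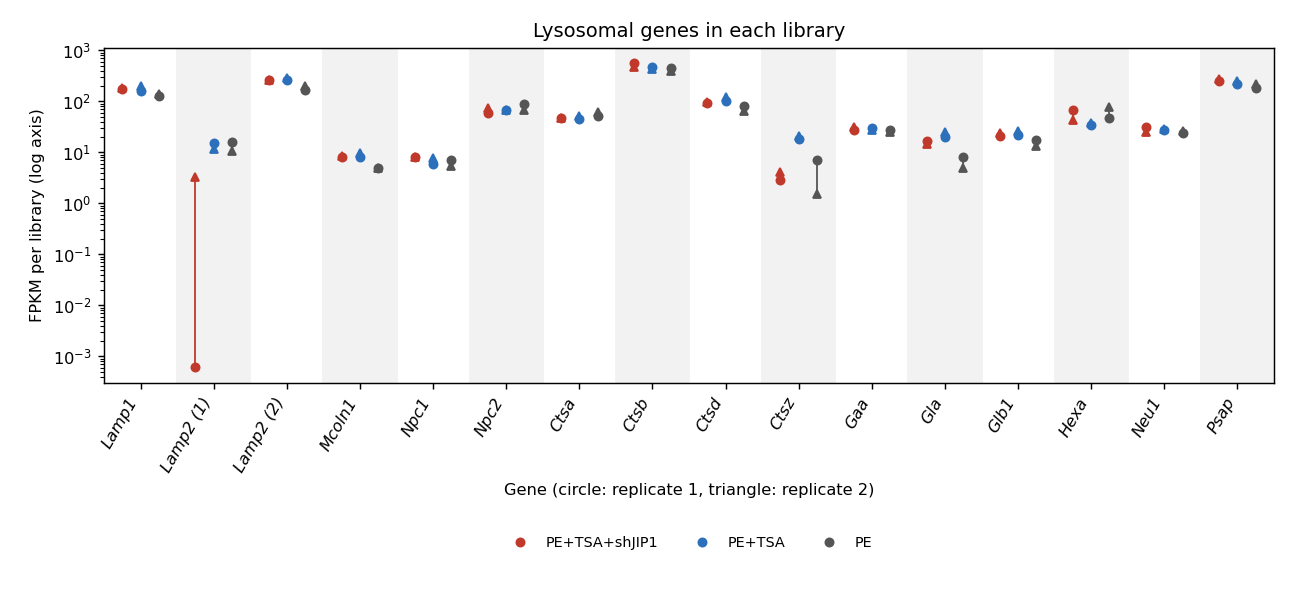
FPKM of the 16 lysosomal rows in each library on a log axis (circle replicate 1, triangle replicate 2; PE+TSA+shJIP1, PE+TSA and PE from left to right within a row). Gla and Mcoln1 are lowest in PE, Ctsz is highest in PE+TSA at 18 and 20.5, and Lamp2 (1), its listing 1 of 2, is at 0.000602 in a hairpin library.

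The cathepsins are proteases of the lysosome, and Ctsb, a cysteine protease, was among the most abundant members, spanning 391 to 564 FPKM with overlapping PE+TSA and PE groups. Ctsd, an aspartic protease, had 92.8 and 98.5 FPKM with PE+TSA+shJIP1, 102 and 121 FPKM with PE+TSA and 82 and 63.7 FPKM with PE. The 3 groups did not overlap and PE was lowest (TSA change 0.61 ± 0.21, adjusted p = 0.21). Ctsa, the protective protein that stabilises beta-galactosidase and the sialidase, spanned 45.2 to 62.1 FPKM and was lower in all 4 libraries with TSA than in PE.

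Ctsz, a carboxypeptidase of the cathepsin family, had 2.82 and 4.16 FPKM (PE+TSA+shJIP1), 18 and 20.5 (PE+TSA) and 7.16 and 1.52 (PE). Both PE+TSA libraries were above the other 4, which overlapped. Its change was 2.16 ± 0.56 with TSA (adjusted p = 0.138) and -2.19 ± 0.56 with the hairpin (adjusted p = 0.17). The PE libraries differed by 1.70 (log2). Leaving out PE replicate 1, the TSA change passed, but PE was then the shallow PE replicate 2 alone. Without PE replicate 2 the TSA change was 1.31. Ctsl1, the older name of cathepsin L, had 584 and 762 FPKM with PE+TSA+shJIP1, 390.0 and 644 FPKM with PE+TSA and 243 and 243 FPKM with PE. It rose by 1.45 ± 0.30 with both agents (adjusted p = 0.0398; held in 3 of 12 alternatives), while its TSA change of 1.04 ± 0.30 did not pass (adjusted p = 0.159).

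The glycosidases, which trim sugar chains, and Psap, the precursor of the saposins that present lipids to them, had no called row. Gla, alpha-galactosidase A, the enzyme lost in Fabry disease, had 16.8 and 14.9 FPKM (PE+TSA+shJIP1), 20.3 and 25.4 (PE+TSA) and 7.97 and 4.95 (PE). The 3 groups did not overlap, with PE+TSA highest and PE lowest. The change was 1.70 ± 0.29 with TSA (adjusted p = 0.0703) and 1.20 ± 0.29 with both agents (adjusted p = 0.055). The TSA change passed in 1 of 12 alternatives, the one without PE replicate 1, where the shallow PE replicate 2 stood alone for PE.

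Glb1, beta-galactosidase, had 21.3 and 24.4 FPKM with PE+TSA+shJIP1, 21.6 and 26.5 FPKM with PE+TSA and 17.6 and 13.4 FPKM with PE, with PE lowest (TSA change 0.61 ± 0.24, adjusted p = 0.251). Hexa, the alpha subunit of hexosaminidase, had 69 and 43.1 FPKM (PE+TSA+shJIP1), 34 and 37.8 (PE+TSA) and 46.8 and 77.5 (PE). Its PE+TSA libraries lay below the other 4, with no call (TSA adjusted p = 0.301). Gaa, the acid alpha-glucosidase that digests glycogen, spanned only 25.6 to 31.4 FPKM over the 6 libraries, and the 95% interval of its TSA change was -0.39 to 0.57. Neu1, the lysosomal sialidase, spanned 24 to 31.7 FPKM and Psap 184 to 273 FPKM.

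Tfeb and Tfe3 are transcription factors of the MiT/TFE family that switch on lysosome and autophagy genes through the CLEAR element once they enter the nucleus, a step that transcript levels do not show. Tfeb had 7.89 and 7.04 FPKM with PE+TSA+shJIP1, 9.86 and 6 FPKM with PE+TSA and 12.1 and 11 FPKM with PE. All 4 libraries with TSA were below both PE libraries, without passing (TSA change -0.52 ± 0.30, adjusted p = 0.389). Tfe3 had 11.5 and 20.8 FPKM (PE+TSA+shJIP1), 23.2 and 30.7 (PE+TSA) and 22.4 and 19.6 (PE); the hairpin libraries lay below PE+TSA but far from each other (hairpin change -0.74 ± 0.32, adjusted p = 0.358).

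RefSeq promoters of the build GRCr8 (300 bases each) were at hand for 32 of the 38 symbols and were searched for the CLEAR core TCACGTGA and the shorter E-box CACGTG that lies within it; both read alike on either strand. The CLEAR core was in 4 member promoters (12.5%), beside 0.867% of 27457 promoters, and the E-box in 7 (21.9%), beside 6.65%. CLEAR is known as an element of lysosome and autophagy genes, so its higher share among members is background and no result of these libraries. By class, the core was in 3 of 12 lysosomal and 1 of 17 autophagy promoters, and in none of those of Tfeb, Tfe3 and Rilp. Lamp1, Ctsd, Mcoln1 and Atg3 held the core, and Gaa, Glb1 and Atg5 the E-box alone. Both PE+TSA libraries lay above both PE libraries for the 4 with the core and for Glb1, as for 53.8% of the members and 29.5% of all rows, while Gaa and Atg5 overlapped. None of the 7 was called, and no link between motif and level was tested. The promoters of the 4 with the core are printed because they carry the element, and that of Rilp because Rilp fell; capitals mark the CLEAR core and, in the first 4, further E-boxes outside it. Each is written 5′ to 3′ along its gene and lies at chr16:83075014-83075313 (Lamp1, minus strand), chr1:206968772-206969071 (Ctsd, minus strand), chr12:6358008-6358307 (Mcoln1, plus strand), chr11:69159231-69159530 (Atg3, minus strand) and chr10:60853307-60853606 (Rilp, plus strand). A match describes letters, not binding.
Lamp1: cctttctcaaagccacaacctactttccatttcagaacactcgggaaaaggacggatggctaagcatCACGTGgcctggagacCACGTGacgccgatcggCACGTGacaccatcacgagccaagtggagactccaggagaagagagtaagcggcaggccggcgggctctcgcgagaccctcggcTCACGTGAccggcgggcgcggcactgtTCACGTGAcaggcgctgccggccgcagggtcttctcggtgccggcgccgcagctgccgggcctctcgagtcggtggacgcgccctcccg
Ctsd: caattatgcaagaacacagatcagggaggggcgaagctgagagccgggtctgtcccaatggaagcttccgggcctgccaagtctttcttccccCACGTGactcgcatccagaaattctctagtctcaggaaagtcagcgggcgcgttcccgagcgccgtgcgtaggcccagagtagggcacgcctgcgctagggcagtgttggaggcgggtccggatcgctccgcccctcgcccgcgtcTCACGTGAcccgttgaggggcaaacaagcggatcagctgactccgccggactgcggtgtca
Mcoln1: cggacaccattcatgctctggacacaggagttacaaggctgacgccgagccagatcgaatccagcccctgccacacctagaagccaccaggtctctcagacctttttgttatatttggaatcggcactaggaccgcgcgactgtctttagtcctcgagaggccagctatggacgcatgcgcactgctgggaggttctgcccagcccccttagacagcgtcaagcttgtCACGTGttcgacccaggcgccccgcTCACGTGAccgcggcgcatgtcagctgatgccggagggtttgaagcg
Atg3: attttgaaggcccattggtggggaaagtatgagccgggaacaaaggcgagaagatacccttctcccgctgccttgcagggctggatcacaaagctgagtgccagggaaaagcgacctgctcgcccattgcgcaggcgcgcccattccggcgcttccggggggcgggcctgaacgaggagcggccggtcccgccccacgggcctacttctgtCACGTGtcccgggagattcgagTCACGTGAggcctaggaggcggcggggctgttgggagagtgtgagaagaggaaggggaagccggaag
Rilp: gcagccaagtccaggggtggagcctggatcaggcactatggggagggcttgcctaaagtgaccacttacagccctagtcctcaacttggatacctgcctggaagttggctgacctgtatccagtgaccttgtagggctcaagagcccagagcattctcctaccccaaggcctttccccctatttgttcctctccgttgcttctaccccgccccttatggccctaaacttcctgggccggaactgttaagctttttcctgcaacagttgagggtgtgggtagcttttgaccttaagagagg

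Ulk1 or Ulk2, kinases, act with the scaffold Rb1cc1 (FIP200) to start autophagy. Ulk1 had 4.99 and 9.2 FPKM with PE+TSA+shJIP1, 9.64 and 13.2 FPKM with PE+TSA and 7.34 and 7.09 FPKM with PE. Ulk2 spanned 3.15 to 6.45 FPKM, and Rb1cc1 had 21.9 and 16.6 FPKM (PE+TSA+shJIP1), 24.7 and 28.8 (PE+TSA) and 22.2 and 18.7 (PE). For all 3 genes both hairpin libraries lay below both PE+TSA libraries, as did 25.1% of all rows and 33.3% of the members, and none passed (hairpin adjusted p = 0.44 for Ulk1, 0.484 for Ulk2 and 0.434 for Rb1cc1).

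Pik3c3 is the lipid kinase that marks the forming membrane, and Becn1 and Uvrag are subunits that direct it. Uvrag had 10.8 and 11.1 FPKM with PE+TSA+shJIP1, 12.9 and 18.6 FPKM with PE+TSA and 8.29 and 10.5 FPKM with PE, with PE+TSA highest (TSA change 0.68 ± 0.27, adjusted p = 0.254). Pik3c3 had 2.98 and 7.51 FPKM (PE+TSA+shJIP1), 7.03 and 6.9 (PE+TSA) and 4.71 and 2.91 (PE), with its hairpin libraries near the lowest and the highest value. Becn1 had 65.6 and 43 FPKM with PE+TSA+shJIP1, 87.2 and 48.2 FPKM with PE+TSA and 91.2 and 49.5 FPKM with PE: replicate 1 was above replicate 2 in every group, by more than any group differed from another.

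Wipi2, which reads that lipid mark and recruits Atg16l1, had 59.4 and 55.7 FPKM (PE+TSA+shJIP1), 32.9 and 30.7 (PE+TSA) and 30.6 and 17.4 (PE). The hairpin libraries were above all others. Wipi2 rose by 1.28 ± 0.29 with both agents against PE (adjusted p = 0.0488), and its change was 0.83 ± 0.29 with the hairpin against PE+TSA (adjusted p = 0.26). The call held in 4 of 12 alternatives and was lost without PE+TSA+shJIP1 replicate 1, PE+TSA+shJIP1 replicate 2, PE+TSA replicate 1, PE+TSA replicate 2 or PE replicate 2 (adjusted p 0.101 to 0.212); without PE replicate 2 the change was 0.89. Its relative Wipi1 spanned 32.7 to 54.2 FPKM, and Atg2a, a lipid transfer protein of the growing membrane, 7.26 to 12.2 FPKM; neither was called.

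Atg7 and Atg3 are enzymes, and Atg12, Atg5 and Atg16l1 the complex, that fix Atg8 proteins to the membrane. Atg12 had 20.5 and 27.1 FPKM with PE+TSA+shJIP1, 9.41 and 14.1 FPKM with PE+TSA and 8.65 and 8.14 FPKM with PE, highest in the hairpin libraries and lowest in PE, with no overlap. It rose by 1.39 ± 0.28 with both agents, 2.61-fold on this scale (adjusted p = 0.0395), and its change was 0.97 ± 0.28 with the hairpin against PE+TSA (adjusted p = 0.207). The call held in 4 of 12 alternatives, with changes of 1.19 to 1.58, and was lost without each of the 6 libraries in turn (adjusted p 0.071 to 0.216).

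Atg16l1 had 33.4 and 30.8 FPKM (PE+TSA+shJIP1), 16.3 and 22.8 (PE+TSA) and 22.7 and 28.2 (PE), highest in the hairpin libraries (hairpin change 0.70 ± 0.25, adjusted p = 0.266). Atg5, to which Atg12 is joined, spanned 5.54 to 8.07 FPKM, with a 95% interval of -0.69 to 0.71 for its hairpin change, and Atg7 spanned 4.07 to 6.18 FPKM. Atg3 had 38.2 and 42.3 FPKM with PE+TSA+shJIP1, 34.9 and 39.7 FPKM with PE+TSA and 33.3 and 12.6 FPKM with PE, where the lowest value is from the shallow library, and it was not called.

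**Figure D3:**
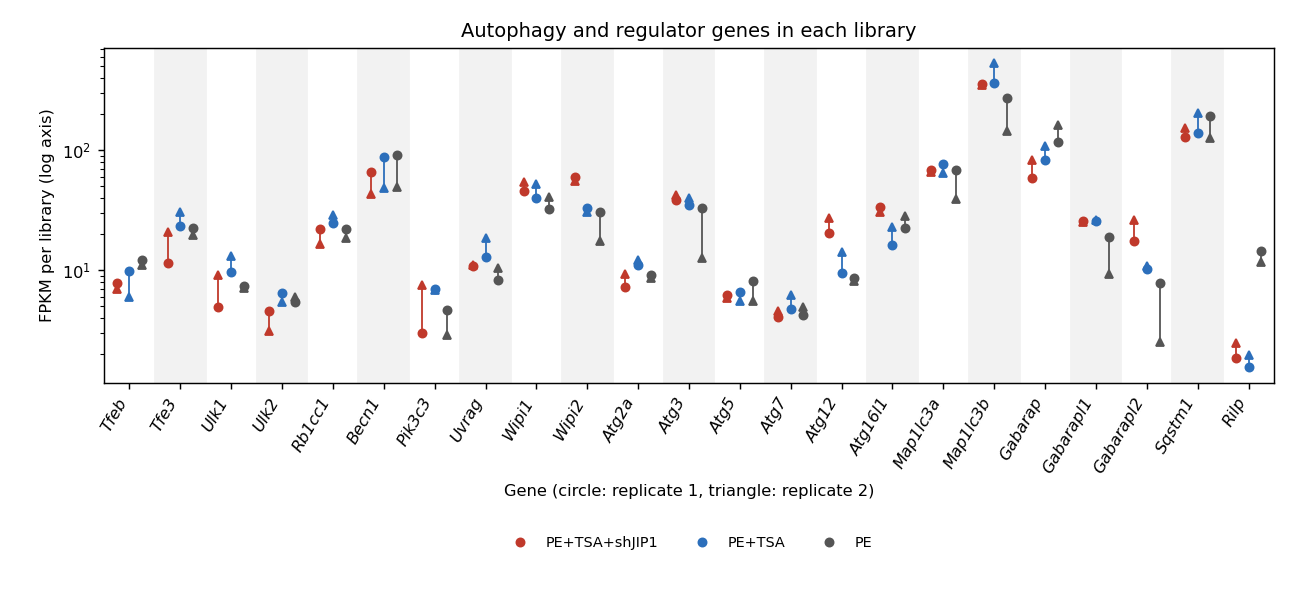
FPKM of the autophagy rows, Tfeb, Tfe3 and Rilp in each library on a log axis (circle replicate 1, triangle replicate 2; PE+TSA+shJIP1, PE+TSA and PE from left to right within a row). Rilp is at 1.55 to 2.47 in the 4 libraries with TSA and at 14.4 and 11.7 in PE, and Atg12 and Wipi2 are highest in the hairpin libraries.

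Atg8-family proteins coat the autophagosome and bind cargo receptors. Map1lc3b (LC3B) had 359 and 349 FPKM (PE+TSA+shJIP1), 366 and 532 (PE+TSA) and 270.4 and 145 (PE). All 4 libraries with TSA were above both PE libraries (TSA change 1.15 ± 0.35, adjusted p = 0.167), and without PE replicate 2 the change was 0.70. Map1lc3a (LC3A) spanned 38.9 to 76.4 FPKM. Gabarapl1 had 25.8 and 25.2 FPKM with PE+TSA+shJIP1, 25.8 and 26.4 FPKM with PE+TSA and 18.8 and 9.39 FPKM with PE, lowest in PE (TSA change 0.92 ± 0.33, adjusted p = 0.217).

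Gabarapl2 had 17.7 and 26.3 FPKM (PE+TSA+shJIP1), 10.2 and 10.9 (PE+TSA) and 7.87 and 2.52 (PE), with no overlap between groups. Its change with both agents, 2.01 ± 0.46, just missed the threshold (adjusted p = 0.0511); it passed in 3 of 12 alternatives, with changes of 1.35 to 2.68. Gabarap ran the other way, with 58.2 and 82.8 FPKM with PE+TSA+shJIP1, 82.2 and 108 FPKM with PE+TSA and 118 and 161 FPKM with PE, so that PE was highest (change with both agents -0.98 ± 0.28, adjusted p = 0.0768). None of these signs turned with quantile normalization. Family members resemble each other in sequence, and how shared reads were assigned is not stated, so the split among them is uncertain.

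Within the summed FPKM of the 5 family members, Gabarap made up 11 and 15.1% with PE+TSA+shJIP1, 14.7 and 14.6% with PE+TSA and 24.4 and 45.2% with PE. Map1lc3b made up 67.9 and 63.5% with PE+TSA+shJIP1, 65.3 and 71.7% with PE+TSA and 55.9 and 40.6% with PE. For both genes the 4 libraries with TSA lay apart from the PE libraries. Gabarapl2 made up 3.35 and 4.78% with PE+TSA+shJIP1, 1.82 and 1.47% with PE+TSA and 1.63 and 0.707% with PE, higher with the hairpin than in the other 4 libraries, and the shares of Map1lc3a overlapped between all groups. The sum itself was 529 and 549 FPKM (PE+TSA+shJIP1), 560.3 and 742 (PE+TSA) and 484 and 356 (PE).

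**Figure D4:**
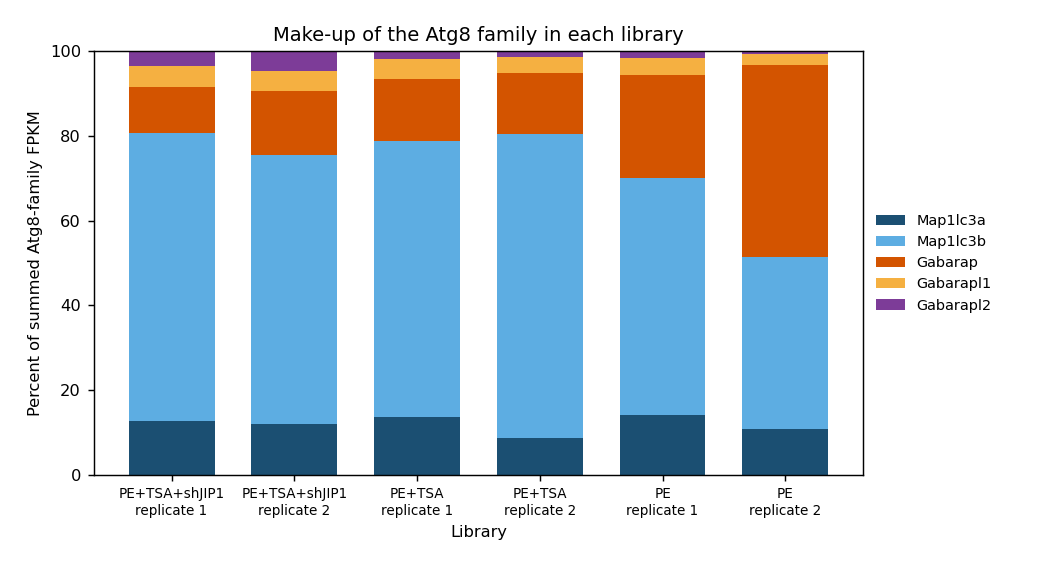
Share of each Atg8-family gene in the summed FPKM of the family (percent) in each library, with PE+TSA+shJIP1, PE+TSA and PE from left to right. Gabarap makes up 11 to 15.1% in the 4 libraries with TSA, against 24.4 and 45.2% in PE.

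Sqstm1 (p62), the receptor that ties ubiquitin-tagged cargo to LC3, had 128 and 154 FPKM with PE+TSA+shJIP1, 139.6 and 206 FPKM with PE+TSA and 194 and 127 FPKM with PE. Its groups overlapped in all 3 comparisons, with a 95% interval of -0.62 to 0.84 for the TSA change. Among 11 rows of other receptors, Bnip3l rose and Park2 fell with both agents, where 8.27% of all rows were called, and none was called in the other comparisons. Bnip3l (NIX), which hands mitochondria to the autophagosome, had 57.4 and 57.6 FPKM (PE+TSA+shJIP1), 28.2 and 32.2 (PE+TSA) and 26.4 and 16.4 (PE), highest with the hairpin (change with both 1.42 ± 0.27, adjusted p = 0.0323). Park2, the ubiquitin ligase parkin that tags damaged mitochondria, had 1.93 and 1.07 FPKM with PE+TSA+shJIP1, 4.96 and 4.6 FPKM with PE+TSA and 6.12 and 12.1 FPKM with PE, lowest with the hairpin (-1.97 ± 0.40, adjusted p = 0.0391). The calls held in 5 of 12 alternatives for Bnip3l and 3 for Park2, where the replicate number as a block also ended the call (adjusted p = 0.0507).

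**Figure D5:**
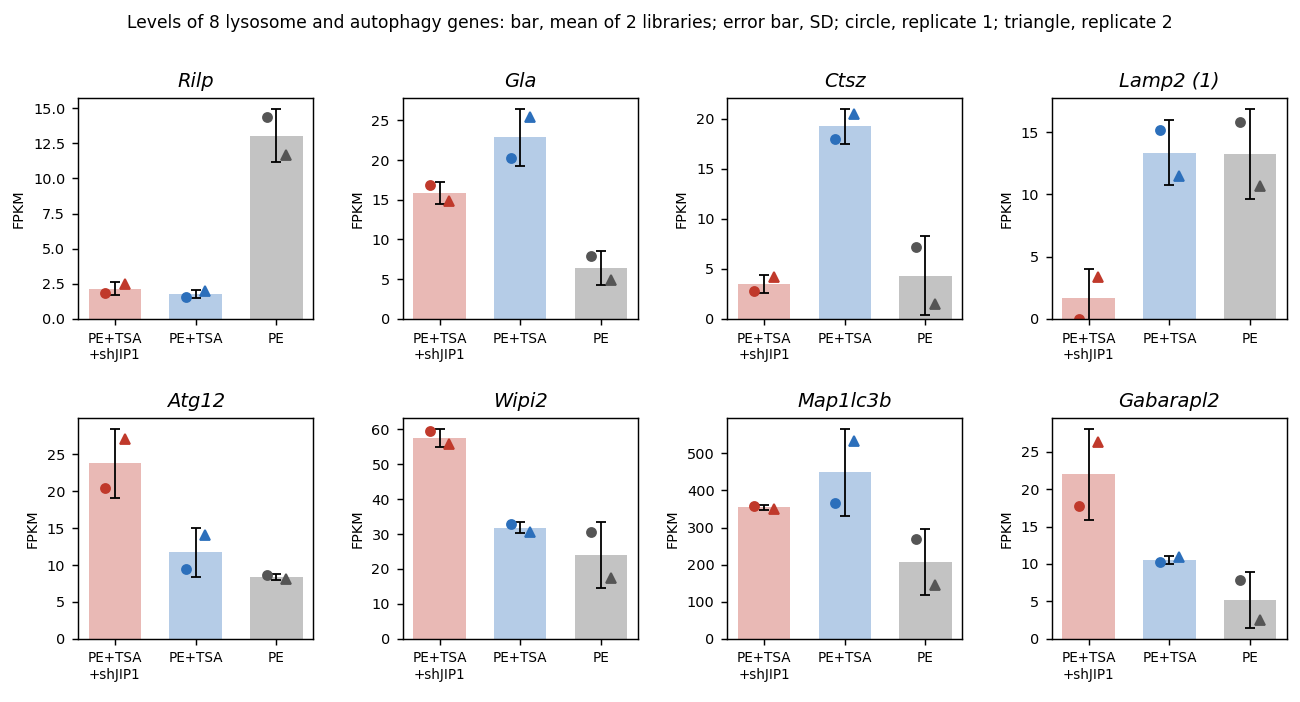
FPKM of 8 members on linear axes from 0 (bar mean, error bar SD, n = 2; circle replicate 1, triangle replicate 2), with PE+TSA+shJIP1, PE+TSA and PE from left to right. Rilp is low in both groups with TSA, Ctsz is highest in PE+TSA, and Atg12, Wipi2 and Gabarapl2 are highest with the hairpin; Lamp2 (1) is its listing 1 of 2.

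Over all lists of further lysosome and autophagy genes, 134 of 139 rows were tested. By limma none was called with TSA (21 higher and 8 lower at an unadjusted p under 0.05, 21.6% of them beside 18.7% of all rows; median 0.23) and none with the hairpin (4 and 12, 11.9% beside 14.9%; median -0.13). With both, Fuca1 and Bnip3l rose and Park2 and Plekhm2 fell, 4 of 134 rows where 8.27% of all rows were called, so the share was below that of the table (median 0.11). Of 21 further hydrolases, 7 were higher and 1 lower with TSA at that unadjusted limit (11.6% and 7.1% of all rows). The counts were 1 and 4 with the hairpin (5.93% and 8.94% of all rows) and 5 and 2 with both agents (17.1% and 13.6%). Fuca1, a fucosidase, had 106 and 119 FPKM (PE+TSA+shJIP1), 116 and 129 (PE+TSA) and 55.2 and 47.7 (PE), lowest in PE, and rose by 1.12 ± 0.19 with both agents (adjusted p = 0.0275; held in 6 of 12 alternatives). The calls of Plekhm2, Ctsl1, Bnip3l, Park2 and Fuca1 were each lost without PE replicate 2 and without any 1 of the 4 libraries with TSA.

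The vacuolar ATPase, the proton pump of the lysosome, had 18 rows and none called. Both PE+TSA libraries lay above both PE libraries in 12 of them and below in 0 (median change 0.41), where 29.5% and 21.1% of all rows did so. Both hairpin libraries lay above PE+TSA in 2 and below in 7 (median -0.16), beside 24.9% and 25.1% of all rows. Atp6v1a, its catalytic subunit, had the smallest p, with 14.8 and 18.9 FPKM with PE+TSA+shJIP1, 14.6 and 21.3 FPKM with PE+TSA and 10.6 and 8.03 FPKM with PE (TSA change 0.87 ± 0.29, adjusted p = 0.194). No row was called among 20 rows listed with mTORC1, the Ragulator and folliculin, which act at the lysosome in sensing nutrients. Rragd, a Rag GTPase, had the smallest p (TSA change 1.10 ± 0.27, adjusted p = 0.131). That list also held Mitf, a transcription factor of the MiT/TFE family. Both PE+TSA libraries lay above both PE libraries for Mitf (TSA change 0.59 ± 0.31, limma adjusted p = 0.363). None was called among 21 rows of membrane and transport genes, led by the sorting receptor Sort1 (TSA change 1.68 ± 0.34, adjusted p = 0.0948). None was called among 14 of the other autophagy machinery, led by Atg4c, a protease that trims Atg8 proteins (change with both 1.27 ± 0.32, adjusted p = 0.0604), or among 4 other cathepsins, led by Ctsf (change with both 1.04 ± 0.28, adjusted p = 0.0668).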

How the data were processed

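The authors deposited 1 table of FPKM values for the 6 libraries. Its header gives no unit; Cufflinks and the build rn6 appear, without version or role, per the submitters' processing notes. For the aligner, the annotation and the strand, the sources used here give nothing, and reads of overlapping or antisense genes cannot be separated.

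Each row was its own feature. With limma 3.58.1 in R 4.3.3, log2(FPKM + 1) of rows with a mean of at least 1 FPKM was fitted with a mean per group over all 6 libraries and a trended prior (3 residual and 3.27 prior degrees of freedom). Tests are two-sided, with Benjamini-Hochberg adjustment over all rows tested. Alternatives changed the pseudocount, the filter, the normalization, the groups fitted, a replicate block and each library in turn, keeping the rows tested in the last. The fit and the depth estimate were tested on simulated data; absolute depth is unknown, so no counting intervals are given.

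Members and gene lists were chosen with earlier results of these data known. Fully described are called members, those of smallest p in each role, and Tfeb, Tfe3, Sqstm1, Map1lc3b and Rilp; from other lists, called genes or the smallest p. Promoters are from RefSeq (GRCr8), not the build of the values. No set test was run.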

Additional observations from a re-analysis of the deposited data

How the results depend on the processing

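The number of rows called depended on the settings, and no result changed direction except where a median lay near 0. Over all rows, 84 were called with TSA, against 3 with no filter on low values and 5 with only the 2 groups compared in the fit; with the hairpin 30, against 0 and 8; with both agents 857, against 374 and 4. Leaving out 1 library at a time gave 6 to 203, 7 to 16 and 4 to 941. Of the members, Rilp was the 1 called with TSA; the count was 0 with a pseudocount of 0.1, 0 with no filter, 0 with a filter of 5 FPKM and 0 with only those 2 groups, and 0 to 2 with a library left out. With both agents it was 3, against 1 with no filter, 5 with 5 FPKM, 6 with quantile normalization, 0 with only those 2 groups, and 0 to 6 with a library left out. The lysosomal medians were 0.19 to 0.33 (TSA), -0.12 to 0.02 (hairpin) and 0.22 to 0.38 (both), and the autophagy medians 0.27 to 0.47, -0.27 to -0.10 and 0.03 to 0.29, with a library left out; that of autophagy with both agents was 0.16 with quantile normalization. The causes were not tested. The 5 FPKM filter left out Atg4c, which has no value there. Among the changes of single genes, 481 alternative values kept their direction and side of the threshold, 12 newly passed and 70 no longer did.

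By the labels, replicates share only a number. Replicate differences correlated across genes at 0.074 between PE+TSA and PE, 0.04 between PE+TSA+shJIP1 and PE, and 0.122 between PE+TSA+shJIP1 and PE+TSA. These are values over all rows tested, and single genes can differ. The cardiomyocyte marker sum and Becn1 were higher in replicate 1 than in replicate 2 in every group. Other members, such as Lamp1, Psap and Gabarap, were lower in replicate 1 in every group. Whether libraries with the same number shared a culture or batch was not tested. With the replicate block 28 rows were called with TSA, 18 with the hairpin and 1063 with both, and 0, 0 and 4 members. On simulated data, a true log2 change of 1 was called in 5.4% (TSA), 7.4% (hairpin) and 8% (both agents) of cases. That simulation had 2 libraries a group and 200 changed rows, and it gave all libraries the same spread. It therefore did not model the shallow PE replicate 2 apart. In the libraries themselves, 857 rows were called with both agents, and changes near 1 were among them, such as that of Fuca1 (1.12 ± 0.19). A lone library was assumed to vary like the other groups.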

Other observations

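The genes next to Rilp in the GRCr8 order were read after its values were seen. Prpf8, a splicing factor, had 88.7 and 81.9 FPKM (PE+TSA+shJIP1), 64.6 and 58.5 (PE+TSA) and 50.4 and 43.2 (PE) (TSA change 0.39 ± 0.19, adjusted p = 0.332; change with both agents 0.86 ± 0.19, adjusted p = 0.0481, limma). Scarf1, a scavenger receptor on the other side, had 1.58 and 1.41 FPKM with PE+TSA+shJIP1, 0.118 and 0.129 FPKM with PE+TSA and 1.58 and 2.63 FPKM with PE. These levels are low. Its TSA change was -1.45 ± 0.41 (limma adjusted p = 0.159), and its change with both agents was -0.30 ± 0.41 (adjusted p = 0.657). Neither overlaps Rilp.

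Ppt1, a lysosomal thioesterase, averaged 19.8 ± 3.39 FPKM in PE+TSA+shJIP1, 48.6 ± 6.28 FPKM in PE+TSA and 17 ± 4.25 FPKM in PE (SD, n = 2 each) and, like Ctsz, was highest in PE+TSA. Its change was 1.48 ± 0.26 with TSA (adjusted p = 0.0776) and -1.26 ± 0.26 with the hairpin (adjusted p = 0.12). It was picked after its values were seen.

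The members varied less between libraries of a group than the table as a whole. The median absolute difference of 2 libraries on the log2 scale was 0.19 in PE+TSA+shJIP1, 0.23 in PE+TSA and 0.32 in PE for the 39 rows, and 0.30, 0.30 and 0.39 in those groups for all rows tested; levels were not matched.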
